A study of Mus musculus with 6 samples.

Results

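Glutathione synthesis, recycling and cystine import were followed through the probe sets of 9 genes, Slc7a11, Slc3a2, Gclc, Gclm, Gss, Gsr, Glrx, Ggct and Ggt1. Every probe set whose gene symbol in the array annotation, or an alias of it, was one of these names was taken. This gave 16 probe sets of 8 genes, out of 45037 probe sets tested and 18193 genes with a symbol. No probe set was reached for Ggt1, which is not analysed here. RNA came from the back skin of 6 female mice of a single litter, killed on postnatal day 2.5, on a mixed FVB/N and C57BL/6 background, with 1 Affymetrix array per mouse. The 3 caNrf2 mice carried K5cre with the caNrf2 transgene, and the 3 controls are described as K5cre-wt, so both groups carried K5cre. The Cre recombinase is placed by its name under the keratin 5 promoter, which is active in basal keratinocytes, while the RNA is of whole skin. The protocol gives the genotypes as tg/tg and tg/wt, the genotype field of the caNrf2 samples reads tg/g, and the treatment field names CaNrf2 on all 6 samples, so groups were taken from the titles (transgene or wildtype). The titles also hold the word "strong", which the labels do not explain.

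Glutathione is the main small thiol of the cell and is made from glutamate, cysteine and glycine. Cysteine enters largely as cystine through an exchanger made of the light chain Slc7a11 (xCT) and the heavy chain Slc3a2. Glutamate-cysteine ligase, a dimer of the catalytic subunit Gclc and the modifier subunit Gclm, joins glutamate to cysteine in the rate-limiting step, and glutathione synthetase, Gss, adds glycine. Glutathione reductase, Gsr, returns oxidised glutathione to its reduced form with NADPH, and glutaredoxin, Glrx, uses reduced glutathione to release proteins from mixed disulfides. The gamma-glutamylcyclotransferase Ggct acts on gamma-glutamyl amino acids, and Ggt1 cleaves glutathione outside the cell. Nrf2 is a transcription factor that binds the antioxidant response element with a small Maf partner, and genes of glutathione synthesis are among its best known targets.

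In caNrf2 skin, RNA for the light chain of cystine import, for both steps of synthesis and for recycling was higher. Each probe set of Slc7a11, Gclc, Gclm, Gss and Gsr rose. The heavy chain Slc3a2, Glrx and Ggct did not pass. Of the 16 probe sets, 10 were higher, 0 were lower and 6 did not pass (limma, adjusted p under 0.05). Over all 45037 probe sets 1.04% were higher and 0.633% were lower by the same rule. The members were chosen with earlier results of these data known, so such shares are a description and not a test. At an unadjusted p under 0.05 the members counted 11 higher and 1 lower, where 8.90% of all probe sets were higher and 8.53% lower. Each of the 10 rose by at least 2-fold, and the median over the 16 was 1.36 on the log2 scale, against -0.00 over all probe sets. The groups did not overlap in 13 member probe sets, 12 of them higher in caNrf2, where 23.0% of all probe sets did not overlap and 11.4% did so in the higher direction. All 10 were also called under each alternative that tested them, at an adjusted p up to 0.0017. In whole skin, more RNA per cell and a larger share of cells holding the transcript cannot be told apart.

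**Figure D1:**
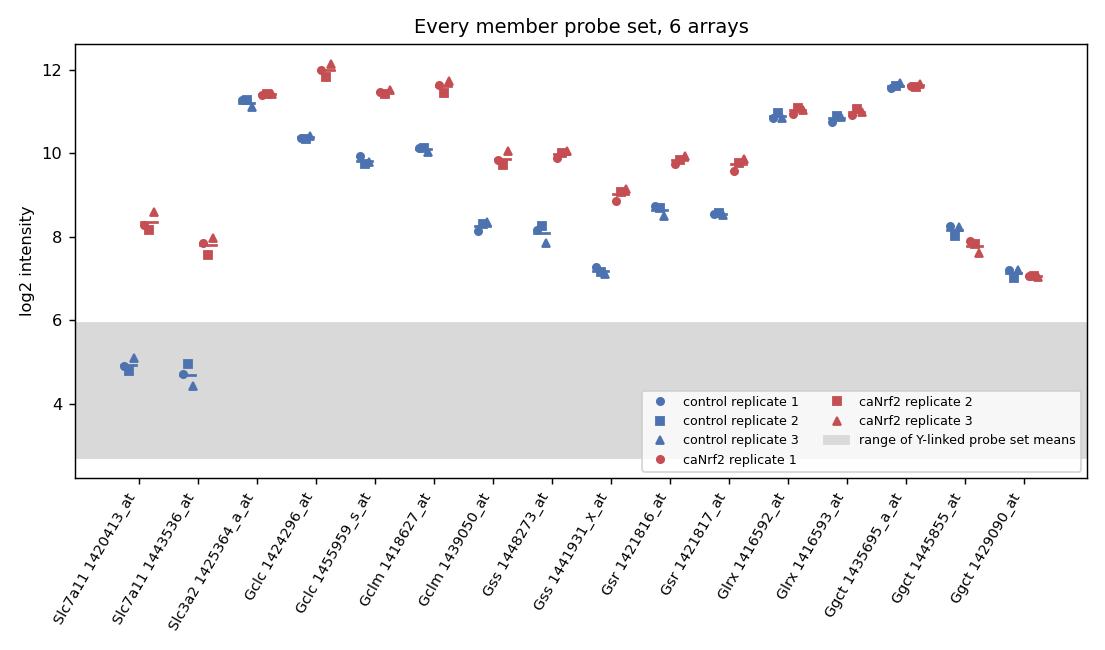
Log2 intensity (vertical axis) of each of the 16 probe sets on the 6 arrays, control in blue and caNrf2 in red, with 1 symbol per replicate and a short line at the group mean. The grey band spans the group means of Y-linked probe sets, 6.46 to 61.6 in intensity. The control arrays of Slc7a11 lie inside it while its caNrf2 arrays lie above it. An Sry _x_at probe set gives the top of the band, and without it the highest mean is 33.6. Control replicate 3 of Slc7a11 1420413_at, at 34.4, lies just above that value.

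Promoter sequence is shown for the rising genes with an entry in RefSeq's table (build GRCm38.p6), since these genes rose together and Nrf2 acts through a DNA element. Entries were found for 7 of the 9 genes, the others being Gclc and Gsr. The core of the antioxidant response element was searched as TGACNNNGC on either strand, in windows from 250 bases before to 50 bases after the start. A second motif, TGATGCAAA on either strand, is the amino acid response element known to be bound by Atf4, and it was chosen after the data were seen. Shown are the 250 bases before the start, 5′ to 3′ on the strand of the gene, for Gclm (chr3:122245307-122245556, plus strand), Gss (chr2:155592811-155593060, minus strand) and Slc7a11 (chr3:50443614-50443863, minus strand). Capitals mark matches to either motif.
Gclm: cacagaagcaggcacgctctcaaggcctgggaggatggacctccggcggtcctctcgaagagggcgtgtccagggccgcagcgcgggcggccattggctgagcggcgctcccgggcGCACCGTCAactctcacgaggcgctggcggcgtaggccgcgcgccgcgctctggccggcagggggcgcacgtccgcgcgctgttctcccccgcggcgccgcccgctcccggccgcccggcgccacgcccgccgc
Gss: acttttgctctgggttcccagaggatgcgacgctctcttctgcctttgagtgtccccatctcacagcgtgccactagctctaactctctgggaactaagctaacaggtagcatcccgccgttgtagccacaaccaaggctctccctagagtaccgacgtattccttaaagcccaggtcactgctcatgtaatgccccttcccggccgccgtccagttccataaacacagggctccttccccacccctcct
Slc7a11: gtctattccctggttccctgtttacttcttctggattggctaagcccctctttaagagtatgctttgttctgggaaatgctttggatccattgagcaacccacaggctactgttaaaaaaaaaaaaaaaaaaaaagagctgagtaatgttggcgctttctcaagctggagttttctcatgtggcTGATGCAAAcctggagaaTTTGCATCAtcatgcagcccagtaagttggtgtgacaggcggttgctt
The Gclm window held 1 match to TGACNNNGC, on the opposite strand, and the Gss and Slc7a11 windows held none. Over all entries 12.4% of windows and 14.0% of genes held this core, and 3 of the 7 members did (Gclm, Ggct and Ggt1). Ggct, which did not pass, held the core in its window, and Gss, which rose, did not. Sequence outside these windows was not searched, and whether a match bears on a rise was not tested. The stricter form TGACTCAGC, of the same length with each N fixed, was found in 0.454% of all windows and in none of the member windows. The TGATGCAAA motif was present in 0.271% of all windows and in 1 member, Slc7a11, as 2 copies in opposite orientation. As it was chosen after the data were seen, this match is a description only, and binding by Atf4 was not tested.

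Nfe2l2, the gene of Nrf2, was read beside the group labels. Its bright probe set read 1136, 1222 and 1242 in the caNrf2 arrays and 825, 726 and 774 in the control arrays (replicates 1 to 3). The groups did not overlap, and the log2 difference was 0.63 ± 0.07 (SE; limma, adjusted p = 0.00176). A dim second probe set, 16.9 to 18.8 in control and 18.7 to 21.8 in caNrf2 arrays, overlapped between the groups and did not pass (0.16 ± 0.08; limma, adjusted p = 0.315). Whether either probe set detects the transgene transcript was not tested, so neither settles the genotype labels. Markers of skin cell types were measured for 41 of 45 listed genes in 10 lists, of which 0 were higher and 1, the adipocyte gene Lep, was lower (-0.58 ± 0.07; limma, adjusted p = 0.00231). At an unadjusted p under 0.05 the markers counted 0 higher and 7 lower, among them 4 of 4 melanocyte genes, beside 9.72% of all genes higher and 8.28% lower. Keratinocyte markers were bright, with means from 2894 to 20014, and 0 of 6 passed. Of these, 3 (Krt10, Krt1 and Lor) read 17761 to 20875, close to the highest value of any probe set on an array (20444 to 21290), and whether a change could show at that level was not tested. The summed level of all 6 keratinocyte markers was 82618 to 83205 in control and 84745 to 85461 in caNrf2 arrays. That of the melanocyte markers was 9805 to 10420 and 8447 to 9279. The part of these shifts in the results below was not tested, and the median difference of the 6 keratinocyte markers was 0.03 on the log2 scale.

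Slc7a11, the light chain that carries cystine into the cell, had the largest estimated rise of the members, from control values at the level of background probe sets. Its brighter probe set (1420413_at) read 311, 287 and 388 in the caNrf2 arrays and 30.1, 27.7 and 34.4 in the control arrays (replicates 1 to 3). Each caNrf2 array was far above each control array. The log2 difference was 3.41 ± 0.12 (SE; limma, adjusted p = 2.53e-07). The other probe set (1443536_at) read 188 to 252 against 21.5 to 31.0, a log2 difference of 3.10 ± 0.14 (limma, adjusted p = 1.65e-06). Both control means, 30.7 and 26.2, lay within the range of the 13 Y-linked probe sets, which gauge background in female mice. Of these, 11 had both group means under 20, 1 (Usp9y) reached 33.6, and an Sry probe set whose name ending (_x_at) marks probes that can match other sequences reached 61.6. Against that highest mean in place of the control level, the rise was at least 5.29-fold for the brighter probe set and at least 3.61-fold for the other. The log2 differences above depend on how background is treated, and with log2(value + 16) the brighter probe set gave 2.87, and the other was also smaller.

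Slc3a2, the heavy chain that brings Slc7a11 and several other light chains to the membrane, read 2694, 2739 and 2722 in the caNrf2 arrays and 2468, 2468 and 2206 in the control arrays. The groups did not overlap, control replicate 3 being the lowest array. Its 1 probe set gave a log2 difference of 0.19 ± 0.07, or 1.14-fold (95% interval 1.03 to 1.27), and did not pass (limma, adjusted p = 0.198). Its change was set against that of Slc7a11 on the same arrays. Within an array, the log2 intensity of Slc7a11 minus that of Slc3a2 was -6.28 ± 0.25 in control and -3.06 ± 0.23 in caNrf2 skin (SD, n = 3), a change of 3.22 (exact two-sided permutation p = 0.1, 0.2 after Benjamini-Hochberg adjustment over 4 pairs). With 3 arrays against 3, an exact p cannot go below 0.1. The control value of this pair rests on Slc7a11 values within the range of the Y-linked probe sets. With log2(value + 16) the change was 2.68. Of the other light chains that pair with Slc3a2, none passed. Among the 5 measured (Slc7a5, Slc7a6, Slc7a7, Slc7a8 and Slc7a10), 0 were higher and 0 lower, also at an unadjusted p under 0.05, and their differences ran from -0.18 (Slc7a8) to 0.09 (Slc7a7). The leucine carrier Slc7a5 gave -0.12 ± 0.07 (limma, adjusted p = 0.383).

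Gclc, the catalytic subunit of the rate-limiting ligase, read 4108, 3607 and 4531 in the caNrf2 arrays and 1329.8, 1292 and 1375 in the control arrays (1424296_at). The groups were far apart, and caNrf2 replicate 2 was the lowest of its group. The log2 difference was 1.61 ± 0.09, or 3.05-fold (95% interval 2.67 to 3.49; limma, adjusted p = 6.16e-06). The other Gclc probe set (1455959_s_at) gave 1.65 ± 0.07 (adjusted p = 1.65e-06), with 2730.0 to 2927 against 853 to 982.

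Gclm, the modifier subunit that raises the activity of Gclc, read 3183, 2796 and 3382 in the caNrf2 arrays and 1120, 1119 and 1043 in the control arrays (1418627_at). It did not overlap between the groups either, and again caNrf2 replicate 2 was lowest. The log2 difference was 1.51 ± 0.08, or 2.84-fold (95% interval 2.51 to 3.23; limma, adjusted p = 6.24e-06). Its other probe set (1439050_at) gave 1.61 ± 0.10, with 838 to 1071 against 281 to 326. The change of one subunit was set against that of the other. Gclc minus Gclm within an array was 0.28 ± 0.10 in control and 0.39 ± 0.03 in caNrf2 skin (SD, n = 3), a change of 0.10 (exact two-sided permutation p = 0.3, also after adjustment over 4 pairs). The groups overlapped in this difference. Without control replicate 3 the change was 0.159, and without control replicate 2 it was 0.063, so the data do not settle whether the subunits changed alike.

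Gss, which completes the tripeptide, had the next largest estimate. It read 943, 1027 and 1060.4 in the caNrf2 arrays and 287, 304 and 231 in the control arrays (1448273_at). Control replicate 3 was the lowest array, and the groups were far apart. The log2 difference was 1.89 ± 0.10, or 3.71-fold (95% interval 3.16 to 4.35; limma, adjusted p = 6.24e-06), and the other probe set (1441931_x_at) gave 1.84 ± 0.09, with 463 to 567 against 138 to 155. That probe set also ends in _x_at, but its difference lay close to that of the first. Gclc minus Gss within an array changed by -0.28, from 2.29 ± 0.25 to 2.01 ± 0.17 (SD, n = 3), and the groups overlapped (exact two-sided permutation p = 0.3, also after adjustment). This change was -0.139 without control replicate 3 and -0.182 without caNrf2 replicate 2.

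Gsr, the reductase that recycles oxidised glutathione, rose least of the 5. It read 859, 913 and 983 in the caNrf2 arrays and 424, 411 and 360.2 in the control arrays (1421816_at). The lowest caNrf2 array was again above the highest control array. The log2 difference was 1.21 ± 0.08, or 2.31-fold (95% interval 2.03 to 2.63; limma, adjusted p = 4.14e-05), and the other probe set (1421817_at) gave 1.19 ± 0.08, with 761 to 936 against 366 to 382. Gclc minus Gsr within an array changed by 0.40, from 1.74 ± 0.16 to 2.15 ± 0.15 (SD, n = 3). The groups did not overlap in this difference, so the exact two-sided permutation p was 0.1, the smallest possible, and 0.2 after adjustment over 4 pairs. By size of the rise among 18193 genes, Gss ranked 23, Gclc 29, Gclm 35 and Gsr 46.

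**Figure D2:**
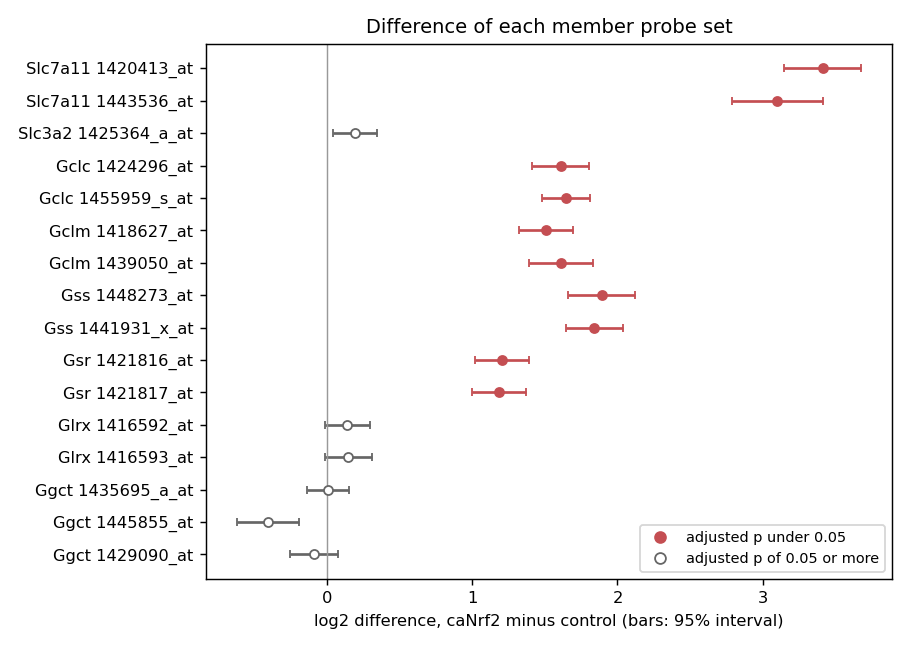
Log2 difference (horizontal axis, caNrf2 minus control) of each member probe set, with 95% intervals from the limma fit. Filled red points passed at an adjusted p under 0.05. The probe sets of Slc7a11 lie at 3.41 and 3.10, those of Gclc, Gclm, Gss and Gsr between 1.19 and 1.89, and the open points between -0.40 and 0.19.

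**Figure D3:**
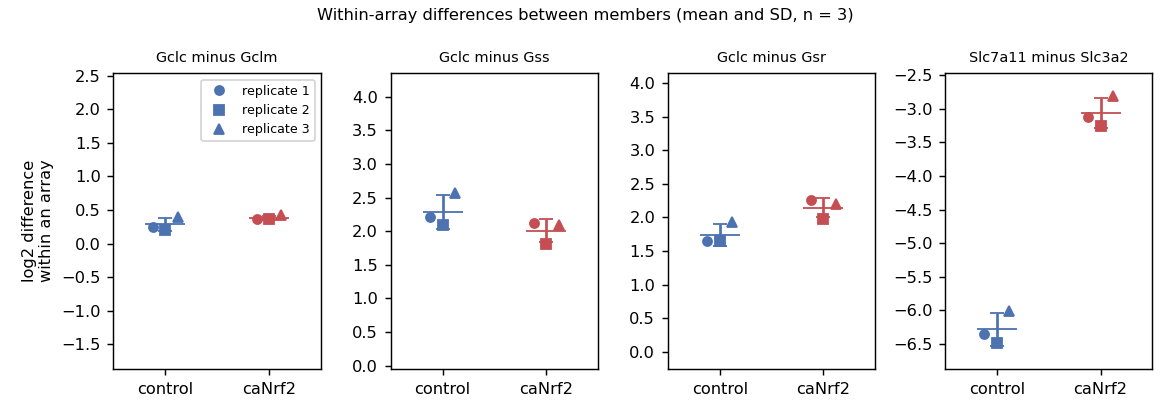
Difference of log2 intensity between 2 members on the same array (vertical axis), by group, with the mean and SD of 3 arrays and 1 symbol per replicate. Each panel spans the same number of log2 units, and Slc7a11 minus Slc3a2 moved from -6.28 to -3.06 while Gclc minus Gclm moved from 0.28 to 0.39.

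Glrx, the thiol transferase that spends glutathione, read 1982, 2165 and 2110.4 in the caNrf2 arrays and 1839, 1983 and 1850.3 in the control arrays (1416592_at). Its groups overlapped, as control replicate 2 lay just above caNrf2 replicate 1. The log2 difference was 0.14 ± 0.07, or 1.10-fold (95% interval 0.993 to 1.23; limma, adjusted p = 0.316), and the other probe set gave 0.15 ± 0.07, with groups that did not overlap.

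Ggct had 3 probe sets, which did not go together. The brightest (1435695_a_at) read 3147, 3081 and 3258 in the caNrf2 arrays and 3025, 3142 and 3266 in the control arrays. Its groups overlapped fully, with a log2 difference of 0.01 ± 0.06 (95% interval -0.14 to 0.15, or 0.910 to 1.11 as a fold; limma, adjusted p = 0.96). The sign of this value turned when caNrf2 replicate 3 or control replicate 1 was left out. The second probe set (1445855_at) read 237, 225 and 194 in caNrf2 and 308, 258 and 302 in control arrays, without overlap. Its log2 difference of -0.40 ± 0.10 did not pass (limma, adjusted p = 0.0763), but was called with an intensity trend (adjusted p = 0.0266), with a trend and robust variances (0.0218) and without control replicate 2 (0.0492), in a range up to 0.248 over its alternatives. The third (1429090_at) gave -0.09 ± 0.07 (adjusted p = 0.567). Which transcripts of Ggct each of them detects was not tested.

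Few of the other genes of the pathway passed. In 4 lists, also chosen with earlier results of these data known, 40 of 46 genes were measured, each by its brightest probe set. Of these 2 were higher, 0 were lower and 38 did not pass (limma), against 1.51% higher and 0.786% lower among all 18193 genes taken the same way. At an unadjusted p under 0.05 the counts were 7 and 4 of 40, beside 9.72% and 8.28% of all genes.

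Among enzymes of glutathione breakdown and the gamma-glutamyl cycle 0 of 12 passed, with 1 higher and 2 lower at an unadjusted p under 0.05 and a median of -0.10, against -0.00 over all genes. Chac1, which degrades glutathione inside the cell, read 582, 558 and 520.5 in caNrf2 and 733, 737 and 645 in control arrays. Its groups did not overlap, and its log2 difference was -0.35 ± 0.08 (limma, adjusted p = 0.0637). Chac1 was called in 6 of 15 alternatives, among them the fit with 1 probe set per gene (adjusted p = 0.0345), in a range up to 0.224. Its relative Chac2 gave -0.17 ± 0.08, the aminopeptidase Lap3 -0.21 ± 0.06 and the dipeptidase Dpep3, whose means of 10.3 and 11.3 lay in the Y-linked range, 0.14 ± 0.06, and none of these passed. Lap3 was called with an intensity trend, alone or with robust variances (adjusted p = 0.0263 and 0.0259).

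Of 13 measured genes of cysteine and glutamate supply, 1 rose, 0 fell and 12 did not pass, with a median of 0.08. Slc1a4, a carrier of neutral amino acids including alanine, serine and cysteine, read 419, 455 and 375 in caNrf2 and 243, 263 and 267 in control arrays. The groups were separate, with a log2 difference of 0.69 ± 0.08 (limma, adjusted p = 0.00231), and its dimmer probe sets gave 1.06 and 0.95. The enzyme Cbs, which starts the route from homocysteine to cysteine, gave -0.24 ± 0.07 (adjusted p = 0.145), and -0.05 in its dimmer probe set. The glutamate carrier Slc1a3 gave 0.22 ± 0.07 (adjusted p = 0.172) with -0.13 to 0.13 in its other probe sets, and the cystine carrier subunit Slc7a9 gave 0.19 ± 0.08 with both means in the Y-linked range.

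Of 10 other glutaredoxins and glutathione-linked enzymes, Glo1 rose, 0 fell and 9 did not pass, with a median of -0.00. Glo1 is the glyoxalase that takes glutathione as cofactor, and read 2567, 2634 and 2774 in caNrf2 and 2044, 2133 and 2030.2 in control arrays. Its groups did not overlap, and the log2 difference was 0.36 ± 0.06 (limma, adjusted p = 0.0253). Leaving out control replicate 2 kept that call, and leaving out any other array ended it, at an adjusted p up to 0.111, as did a fit with the replicate number as a block (adjusted p = 0.0622). The other 3 Glo1 probe sets gave 0.41, 0.24 and 0.11. Ethe1, a mitochondrial enzyme of sulfide oxidation, gave 0.34 ± 0.09 (limma, adjusted p = 0.094) and was called with an intensity trend, alone or with robust variances (0.0350 and 0.0298). Hagh, which follows Glo1, gave 0.07 ± 0.08, and Gstcd gave -0.15 ± 0.07.

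**Figure D4:**
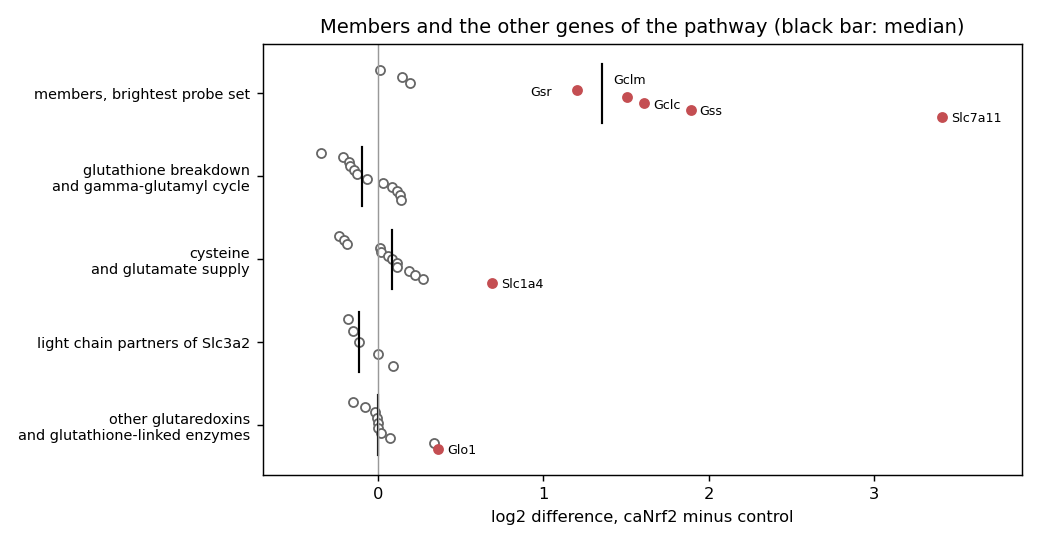
Log2 difference (horizontal axis, caNrf2 minus control) of the 8 members, each by its brightest probe set, and of the genes of the 4 pathway lists, with a black bar at each median. Named red points passed at an adjusted p under 0.05, and outside the members these are Slc1a4 and Glo1.

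Some genes outside the pathway followed the members closely across the 6 arrays. Likeness was the root mean square difference of log2 values centred on the control mean, where a smaller value is more alike. Since the 6 arrays fall into 2 groups, this measure mostly reads the size of the group difference and is given as a description. Closest to Gclc were the prostaglandin reductase Ptgr1 (0.095), the carbonyl reductase Cbr1 (0.097) and the envelope protein Sprr2h (0.105). Sprr2h was read by a probe set ending in _s_at, and whether it also detects other Sprr2 genes was not tested. Closest to Gclm were the tektin Tekt5 (0.067), Cbr1 (0.067) and Ptgr1 (0.071). Closest to Gsr were the peroxisomal oxidase Acox2 (0.053), Cracdl (0.055) and thioredoxin reductase Txnrd1 (0.064). Slc7a11 had no such close match, with the alcohol dehydrogenase Adh7 (0.297), the iron-binding protein Pir (0.339) and the glutathione S-transferase Gsta4 (0.343) next to it. A second Adh7 probe set rose by more, at 4.73 against 3.46.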

How the data were processed

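The authors deposited probe set intensities on a linear scale, 1 column per mouse, made with RMA per the submitters' processing notes. Its version, and whether values were rescaled afterwards, are not stated there. RMA corrects background, quantile-normalizes and summarises probes on a log scale, which hides any shift shared by most transcripts. Array medians ran from 80.3 to 81.6. No read depth applies, and the number of arrays limits the precision.

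Symbols came from the array annotation, updated by Entrez identifier with a RefSeq table (GRCm38.p6), which matched 34741 of 34945 single-symbol probe sets. Intensities were log2-transformed, and all 45037 probe sets other than array controls were fitted with limma 3.58.1 in R 4.3.3 (lmFit, eBayes, group as the only term) and adjusted by Benjamini-Hochberg, with a call at an adjusted p under 0.05. The fit was tested on simulated data in which 200 probe sets were shifted. It recovered 2% of shifts of 0.25 on the log2 scale, 60% of 0.5, 94% of 1 and 100% of 2. The shifted probe sets were drawn at random over all intensities and moved upward only, so these rates need not hold for a single gene. A gene with a small difference that did not pass, such as Slc3a2 or Glrx, may still have changed. Intervals are for single probe sets, not adjusted. List genes were read by the probe set with the highest mean. Pairs of members were compared by exact permutation of arrays.

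Named were all members, Nfe2l2, up to 4 genes per list by smallest p, and the 3 genes most like each of 4 members (mean intensity of at least 32, uncharacterised symbols left out). Lep, Slc7a6, Sry, Usp9y, Krt10, Krt1 and Lor were named after their values were seen. The members and lists were chosen with earlier results of these data known. Alternatives changed the variance model, weights, scaling, log offset, filter, unit, block and arrays. The groups' shared replicate numbers were checked for pairing.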

Additional observations from a re-analysis of the deposited data

How the results depend on the processing

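All 10 higher member probe sets kept their direction and call under each alternative that tested them, including each of the 6 arrays left out, and their count was 10 without any 1 array. With 1 probe set per gene, where 8 member probe sets were tested, 5 were higher, beside 412 of all 18193 genes in that fit. The count of lower members became 1 with an intensity trend and 1 with a trend and robust variances, and lay between 0 and 1 with 1 array left out. The sign of the brightest Ggct probe set was not stable, at -0.013 without caNrf2 replicate 3 and -0.019 without control replicate 1, in a range from -0.019 to 0.036 with 1 array left out. Over all probe sets, the 470 higher ranged from 280 to 354 with 1 array left out. The 285 lower ranged from 79 to 270, and were 577 with an intensity trend, 610 with a trend and robust variances and 428 with log2(value + 16). Among pathway genes, the lower count was 2 with a trend, 2 with a trend and robust variances, and 1 each with array weights, log2(value + 16), the filter on dim probe sets and 1 probe set per gene. The higher count was 1 to 2 with 1 array left out. The cause of these moves was not tested, other than the smaller number tested where 1 probe set stood for a gene. The number of members with a promoter match was 3 for the main motif, 0 for TGACTCAGC and 1 for TGATGCAAA. Deviations of same-numbered arrays from their group means correlated at 0.04, 0.16 and 0.08, and those of differently numbered arrays at -0.14 to 0.07. All were small, although the same-numbered values were positive and most others negative. The numbers were not taken as pairs in the main fit. With the replicate block 177 probe sets were lower, 1 pathway gene was higher and 10 member probe sets remained higher. The 4 differences between members kept their sign in each of 9 alternatives, with Slc7a11 minus Slc3a2 between 2.68 and 3.36, Gclc minus Gsr between 0.349 and 0.498, Gclc minus Gss between -0.383 and -0.139 and Gclc minus Gclm between 0.063 and 0.159.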

Other observations

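Among the caNrf2 arrays, replicate 3 gave the highest intensity in all 10 member probe sets that rose. Replicate 2 was lowest in 6 of them, those of Gclc, Gclm and Slc7a11, and replicate 1 in 4, those of Gss and Gsr. Among all 470 probe sets higher in caNrf2 skin, replicate 3 was highest of its group in 52.6%. Which replicate was lowest was not counted over the 470, so the split between genes has no background beside it. The bright Nfe2l2 probe set was also highest in replicate 3, at 1242 against 1136 and 1222. Its dim probe set, which did not pass, was highest in replicate 2, at 21.8 against 18.7 and 20.1. In the control arrays the same 10 probe sets were highest in replicates 1, 2 and 3 in 4, 3 and 3 cases. Probe sets of 1 gene repeat each other, and no test was made.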
